A study of Mus musculus with 24 samples.

Results

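Plasma membrane repair genes encode the proteins that reseal the sarcolemma, the membrane around a muscle fiber, after it tears. The 10 genes described here were the annexin genes Anxa1, Anxa2, Anxa5 and Anxa6, the ferlin genes Dysf and Myof, and Trim72, Cav3, Ahnak and Ehd2. The data are lists of H3K27ac peaks, regions in which chromatin carries the acetylated histone H3 that marks active promoters and enhancers. A peak was assigned to a gene if it overlapped the gene body by at least 1 bp or lay within 10 kb of any of its curated RefSeq starts in mm10. All 10 genes were found among 21000 protein-coding genes of that annotation, and 508 of 469078 peaks in 8 lists were assigned to them.

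The peaks came from ChIP-Seq of myofibers isolated from the quadriceps of C57BL/6J mice (C57BL/6 in the sample labels) that were 10 weeks old at the first injection. In each sex 1 group received vehicle and 3 received weekly prednisone, with the quadriceps taken 4, 6 or 8 days after the last injection. Prednisone, a synthetic glucocorticoid, was given as 5 weekly intraperitoneal injections of 1 mg/kg over 4 weeks, with vehicle (DMSO in PBS) on the remaining 6 days of each week. Each group had 2 H3K27ac libraries and 1 input library, but the deposited files hold 1 peak list per group, so no difference between groups has a replicate error and none was tested.

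A torn sarcolemma lets calcium in, and calcium brings annexins to the wound, where they bind phospholipids and build a cap over it. Dysferlin, the product of Dysf, is a calcium-binding ferlin of the sarcolemma and of vesicles that takes part in resealing, and its loss causes a limb-girdle muscular dystrophy. TRIM72 carries vesicles to the wound, caveolin 3 and EHD2 belong to the caveolae that store membrane, and AHNAK is a very large scaffold protein that binds dysferlin and annexins. Anxa1 is also a textbook glucocorticoid-induced gene in leukocytes.

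The lists differed in depth and length, and this bears on every count given here. H3K27ac depth was 31.6, 7.52, 50.5 and 32.1 M tags in males (vehicle, day 4, day 6 and day 8) and 27.5, 49.0, 30.6 and 39.7 M tags in females. The same lists held 87600, 17482, 32188 and 20499 peaks in males and 38861, 67503, 123249 and 81696 in females. Of the H3K27ac tags, between 5.39% (male day 6) and 47.3% (female day 6) lay in peaks. Start peaks of 12 myofiber genes were found for 9, 5, 10 and 9 genes in males and 9, 11, 11 and 11 in females. Of 6 endothelial genes 6, 1, 5 and 2 had one in males and 2, 5, 6 and 6 in females, and of 5 smooth muscle and pericyte genes 2, 0, 0 and 0 and then 1, 1, 5 and 5. Of 6 fibroblast genes 2, 1, 1 and 0 had one in males and 2, 4, 4 and 5 in females, with Pdgfra and Dcn in 5 lists, Col1a1 in 4 and Lum in none. Of 6 leukocyte and macrophage genes 1, 0, 1 and 0 had one in males and 0, 1, 3 and 3 in females, with Cd68 in 4 lists, Csf1r and Tyrobp in 2 and Ptprc and Adgre1 in none. Of 5 adipocyte genes between 0 and 2 had one in a list, with Fabp4 in 4 lists and Adipoq in none. Of 4 satellite cell genes 1, 0, 0 and 1 had one in males and 0, 2, 2 and 2 in females, and of 4 Schwann cell genes 2, 1, 1 and 1 and then 1, 1, 2 and 1. The part that other cell types play in the repair gene peaks was not tested, and fewer cells of a type cannot be told apart from less H3K27ac per cell.

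A peak within 1 kb of a RefSeq start was called a start peak. In vehicle-treated males 9 of the 10 genes had one, against 54.9% of all protein-coding genes. At day 4 after prednisone the number in males was 5 (31.8% of all genes), and it was 7 at day 6 (32.0%) and 7 at day 8 (35.5%). In vehicle-treated females 6 genes had a start peak (29.5% of all genes), and 8 had one at day 4 (54.3%). In females at day 6 the number was 9 (69.9%), as it was at day 8 (62.5%). The numbers for the repair genes thus lay above the share of all genes in each full list and moved in the same direction as that share between vehicle and day 4. With 17482 peaks taken from each list by findPeaks score, the numbers were 2, 5, 6 and 7 in males and 3, 6, 4 and 5 in females, so that the male change from vehicle to day 4 turned upward. The shares of all genes in these shortened lists were 29.9%, 31.8%, 28.3% and 34.7% in males and 22.5%, 31.6%, 31.5% and 31.1% in females. With the same number taken by normalized tag count the numbers were 7, 5, 6 and 7 in males (34.5%, 31.8%, 30.1% and 34.5% of all genes) and 6, 7, 8 and 8 in females (23.3%, 41.9%, 46.9% and 45.7%). At 4-fold over input or more the male numbers were 5 at day 4, 1 at day 6 and 4 at day 8 (31.8%, 16.1% and 22.7% of all genes), so that the step from day 4 to day 6 turned downward. When a peak had to cover the start base itself, vehicle-treated females had 2 such genes (15.2% of all genes).

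The 10 genes fell into a few patterns. Anxa5, Dysf and Ahnak had a start peak in all 8 lists, a pattern shared by 16.7% of protein-coding genes. Anxa2 lacked one only in males at day 6 (2.2% of protein-coding genes had this pattern), and Trim72 only in males at day 4 (3.18%). Anxa6 and Cav3 lacked one in males at day 4 and in vehicle-treated females (1.8%). Myof lacked one in those 2 lists and in males at day 8 (1.53%). Ehd2 had one in 5 lists, and 3 other protein-coding genes had the same pattern. Anxa1 had none in any list, as was the case for 24.5% of protein-coding genes. In the full lists these patterns did not follow treatment alike in both sexes. Apart from Anxa1, the 4 genes that lacked a start peak in males at day 4 (Anxa6, Myof, Trim72 and Cav3) had one in vehicle-treated males. Of these 4, 3 (Anxa6, Myof and Cav3) lacked one in vehicle-treated females and had one in females at day 4. The share of all genes moved likewise, from 54.9% to 31.8% in males and from 29.5% to 54.3% in females. With lists of equal length by findPeaks score the number of repair genes with a start peak rose in both sexes, from 2 to 5 and from 3 to 6.

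**Figure D1:**
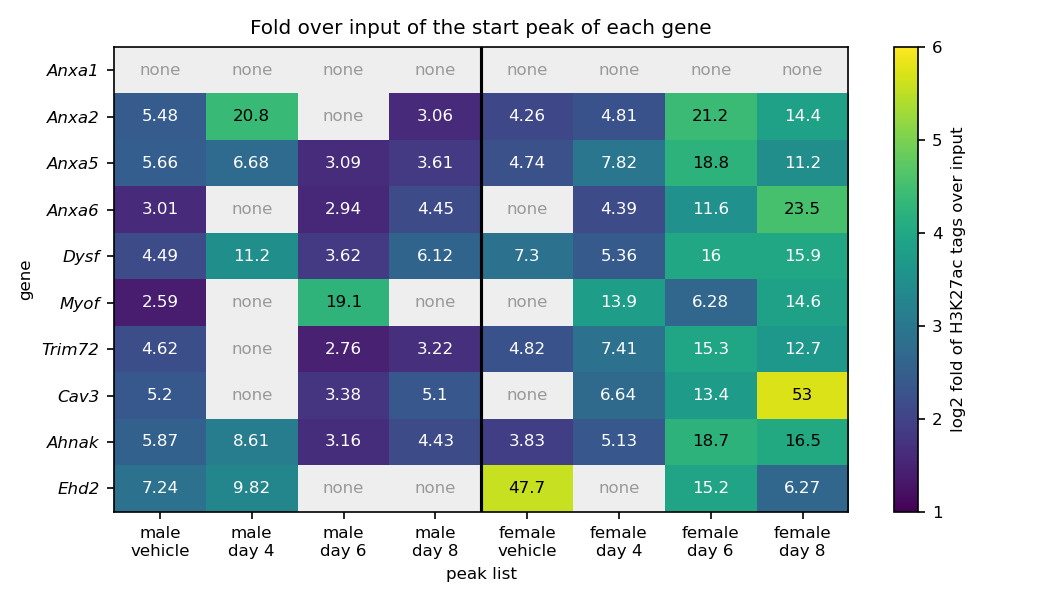
Fold of H3K27ac tags over input tags in the start peak of each gene (rows) in each peak list (columns, 1 list per group, no replicate error), colored on a log2 scale and printed as the fold. Anxa1 has no start peak in any list, Anxa5, Dysf and Ahnak have one in all 8, and the fold runs from 2.59 (Myof, male vehicle) to 53.0 (Cav3, female day 8).

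The ferlin gene Dysf (chr6:84008598-84211059, plus strand) is long, spanning 202 kb, and has 2 RefSeq starts, the first at 84008598 and the second at 84019386. The first start had a peak in every list. In males its fold over input was 3.75 for vehicle and 4.62, 3.62 and 4.49 for days 4, 6 and 8. The female values, in the same order, were 7.30, 4.42, 16.0 and 15.9. The median start peak of all genes also differed between these lists, at 5.18, 9.25, 4.01 and 4.47 in males and 7.20, 6.34, 12.4 and 15.6 in females, so the fold of a gene is best read beside the median of its own list.

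The second Dysf start separated the lists. It had peaks of 4.49-, 11.2-, 3.14- and 6.12-fold in males and none in vehicle-treated females, in whom the nearest peak was 5442 bp away. At days 4, 6 and 8 after prednisone females had a peak there of 5.36-, 11.9- and 12.5-fold. The male day 4 peak began 801 bp from the start and did not cover it, while those of the other 6 lists did.

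Sequences are shown for both Dysf starts, of which the first had a peak in every list and the second did not, for Trim72 and Cav3, which lost and gained start peaks, for Anxa1, which never had one, and for an intronic stretch of Anxa6 that was under a peak in every list. The promoters are from RefSeq (GRCm38.p6, the assembly of mm10), run 5′ to 3′ on the strand of the gene from 250 bases before the start to 50 from it onward, and were found for 9 of the 10 genes, all but Anxa6. Capitals mark matches on either strand to the E-box CANNTG, the site of myogenic bHLH factors, or to the TATA box TATAAA.
Dysf first start, chr6:84008348-84008647, plus strand: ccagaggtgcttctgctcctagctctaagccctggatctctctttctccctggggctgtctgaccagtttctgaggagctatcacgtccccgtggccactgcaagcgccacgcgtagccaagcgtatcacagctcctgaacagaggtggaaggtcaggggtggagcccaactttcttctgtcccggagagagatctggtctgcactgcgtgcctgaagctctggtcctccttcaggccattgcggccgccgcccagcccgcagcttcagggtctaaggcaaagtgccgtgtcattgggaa
Dysf second start, chr6:84019136-84019435, plus strand: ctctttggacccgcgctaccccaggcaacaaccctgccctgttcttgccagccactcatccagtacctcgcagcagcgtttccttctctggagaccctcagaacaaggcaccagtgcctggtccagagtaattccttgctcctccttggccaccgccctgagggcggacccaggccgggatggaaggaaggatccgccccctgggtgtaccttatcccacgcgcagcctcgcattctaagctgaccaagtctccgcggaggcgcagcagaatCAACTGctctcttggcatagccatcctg
Trim72, chr7:128004128-128004427, plus strand: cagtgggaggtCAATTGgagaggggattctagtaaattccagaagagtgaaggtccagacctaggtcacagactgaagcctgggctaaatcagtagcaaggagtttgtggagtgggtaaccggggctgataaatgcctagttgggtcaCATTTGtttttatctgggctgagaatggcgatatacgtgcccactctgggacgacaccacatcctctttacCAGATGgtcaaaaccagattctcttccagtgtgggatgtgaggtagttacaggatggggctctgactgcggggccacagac
Cav3, chr6:112459255-112459554, plus strand: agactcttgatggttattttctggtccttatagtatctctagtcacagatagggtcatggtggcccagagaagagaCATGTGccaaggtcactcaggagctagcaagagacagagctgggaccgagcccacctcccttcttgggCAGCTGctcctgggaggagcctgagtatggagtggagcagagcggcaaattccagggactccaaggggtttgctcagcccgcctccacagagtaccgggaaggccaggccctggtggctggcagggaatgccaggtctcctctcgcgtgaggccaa
Anxa1, chr19:20390622-20390921, minus strand: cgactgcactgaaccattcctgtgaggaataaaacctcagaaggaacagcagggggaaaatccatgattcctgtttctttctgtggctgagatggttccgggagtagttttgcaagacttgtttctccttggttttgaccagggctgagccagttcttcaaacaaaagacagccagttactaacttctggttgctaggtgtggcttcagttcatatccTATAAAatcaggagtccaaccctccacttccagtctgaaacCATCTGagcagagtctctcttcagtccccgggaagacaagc
Anxa6 intron, chr11:55017628-55017927, minus strand: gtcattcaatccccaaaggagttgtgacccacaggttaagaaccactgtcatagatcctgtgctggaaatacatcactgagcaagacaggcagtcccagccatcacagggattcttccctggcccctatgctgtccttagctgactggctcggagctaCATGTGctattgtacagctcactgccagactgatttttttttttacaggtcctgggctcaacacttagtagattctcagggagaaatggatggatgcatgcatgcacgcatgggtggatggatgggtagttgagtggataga

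The glucocorticoid receptor consensus ACANNNTGT was found in 0 of the 10 promoters of these genes, and in 6.85% of 32851 RefSeq promoters of the same length. The E-box CANNTG was found in 7 of the 10 (72.3% of all promoters), with the most matches, 3, in Trim72, 2 in Cav3, 1 at the second Dysf start and 0 at the first. TATAAA was found in Anxa1 and Anxa2, 2 of the 10 (13.6% of all promoters). A match to the CArG box, the site of SRF, was found in 1 of the 10, Anxa5 (1.63% of all promoters), and the MEF2 consensus in 0 (0.557%). Both strands were searched and no matches to different motifs overlapped. The Anxa6 stretch held 1 E-box and none of the other motifs, and of 2632 windows of 300 bases centered on stretches under a peak in every list 60.6% held an E-box and 3.65% the receptor consensus. A match is a run of letters and not a bound site.

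Myof (chr19:37899036-38043577, minus strand) encodes myoferlin, the ferlin of myoblasts and of fibers under repair. Its start peak held the fewest normalized tags, which are tags per 10 M, of the 10 genes in 4 of the 5 lists that had it, and Ehd2 held fewer in the other, vehicle-treated males. With vehicle males had a peak of 2.59-fold and 21.8 normalized tags. At day 6 males had one listed at 19.1-fold, but it was 500 bp long and held 24 H3K27ac tags over 0 input tags, so the listed fold rests on the value the peak caller put in place of 0, and its lower 95% bound is 2.4. At days 4 and 8 males had none. Females had none with vehicle, 13.9-fold at day 4 (27 tags over 1 input tag, 95% interval 2.29 to 569), 6.28-fold at day 6 and 14.6-fold at day 8. By normalized tags, Myof ranked at percentiles 0.75 to 38.1 among the start peaks of the 5 lists in which it had one. The high folds at male day 6 and female day 4 therefore rest on very few input tags, and the intervals given here cover counting error only.

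Anxa1 (chr19:20373434-20390671, minus strand), an annexin that also has anti-inflammatory roles, had no peak of any kind in any list. The nearest peak to its start lay 120 kb away in vehicle-treated males, and 99.6, 101 and 96.2 kb away at days 4, 6 and 8. In females the distance was 101, 101, 93.1 and 101 kb. The nearest peak of any list to the gene body was 79.0 kb from it. The absence is at the depth of these lists and concerns called peaks, since tags outside peaks were not used.

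Anxa2 (chr9:69453683-69491785, plus strand), whose product forms a complex with S100A10, had start peaks of 5.48-fold with vehicle, 20.8-fold at day 4 and 3.06-fold at day 8 in males. The male day 4 value rests on 9 H3K27ac tags over 2 input tags (95% interval 4.30 to 197). At day 6 the nearest male peak began 2082 bp from the start. In females the folds were 4.26, 4.81, 21.2 and 14.4 in order of vehicle and days 4, 6 and 8, and the peak lengthened from 660 bp with vehicle to 4953, 2877 and 7008 bp. Among start peaks of its own list Anxa2 stood at percentile 12.4 by fold in vehicle-treated females, and at 24.9, 78.1 and 45.2 on days 4, 6 and 8.

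Anxa5 (chr3:36448923-36475887, minus strand), the annexin used to detect exposed phosphatidylserine, had a start peak in all 8 lists. Its folds were 5.66, 6.68, 3.09 and 3.61 in males and 4.74, 7.82, 18.8 and 11.2 in females. The start of a second gene, 1810062G17Rik, lies 0.05 kb away on the opposite strand, and the peaks of these 2 genes cannot be told apart.

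Anxa6 (chr11:54978953-55033471, minus strand) encodes the largest annexin, which gathers early at the repair cap. It had start peaks of 3.01-fold with vehicle, 2.94-fold at day 6 and 4.45-fold at day 8 in males, and none at day 4, when the nearest peak was 13.7 kb away. In females it had none with vehicle (nearest peak 3.47 kb away), and 4.39-, 11.6- and 23.5-fold at days 4, 6 and 8. The female day 6 peak was 22771 bp long, from -0.572 to 22.2 kb of the start. Its 1032.6 normalized tags placed it at percentile 98.8 among start peaks of that list, and at 45.3 per kb its density was below the 67.9 per kb of the Ahnak start peak of the same list.

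Trim72 (chr7:128004378-128011393, plus strand) encodes a muscle protein, and at 7.02 kb it is the shortest gene of the group. Its start peak had a fold of 4.62 with vehicle, 2.76 at day 6 and 3.22 at day 8 in males, with none at day 4 and the nearest peak 35.7 kb away. Females had one in all 4 lists, with 4.82-, 7.41-, 15.3- and 12.7-fold. It stood at percentiles 64.0 to 91.4 by normalized tags in the 7 lists that had it, so a list that lacks it lacks one of the larger start peaks of the others. The list that lacks it is the shallowest, with 7.52 M tags.

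The caveola genes Cav3 and Ehd2 differed from each other. Cav3 (chr6:112459505-112472872, plus strand), the muscle caveolin, had start peaks of 5.20-, 3.38- and 5.10-fold in males with vehicle and at days 6 and 8, and none at day 4. Vehicle-treated females had none within 57.4 kb of the start, and females at days 4, 6 and 8 had 6.64-, 13.4- and 53.0-fold. The last value rests on 265 H3K27ac tags over 3 input tags, with a 95% interval of 17.9 to 258. Normalized tags in that peak were 66.7, at percentile 54.3 of its list, against 93.1 at day 6 and 29.0 at day 4.

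Ehd2 (chr7:15948987-15967535, minus strand) encodes an ATPase that holds caveolae at the surface. Males had start peaks of 7.24-fold with vehicle and 9.82-fold at day 4, and none at days 6 and 8, when the nearest peaks were 4.18 and 2.08 kb away. Vehicle-treated females had a start peak with 49 H3K27ac tags and 0 input tags. Its listed 47.7-fold is not a measured ratio, since a value stands in for the 0, and the lower 95% bound is 6.23. Females then had no start peak at day 4, and 15.2- and 6.27-fold at days 6 and 8. The female day 4 list had a peak that began 1256 bp from the start, just outside the limit of 1 kb. At days 6 and 8 the female peak covered 7076 and 8040 bp.

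Ahnak (chr19:8989284-9076926, plus strand) had the largest start peaks of the group by tags. They held 143.6, 143.7, 48.7 and 65.5 normalized tags in males and 45.8, 211.8, 1060.6 and 621.3 in females. Each of these lay between percentiles 90.2 and 99.4 of its own list, while its folds of 5.87, 8.61, 3.16 and 4.43 in males and 3.83, 5.13, 18.7 and 16.5 in females lay at percentiles 6.40 to 72.3. In vehicle-treated females the peak ended 944 bp before the start and did not cover it. In females at days 4, 6 and 8 the start peak was 11509, 15611 and 14984 bp long.

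**Figure D2:**
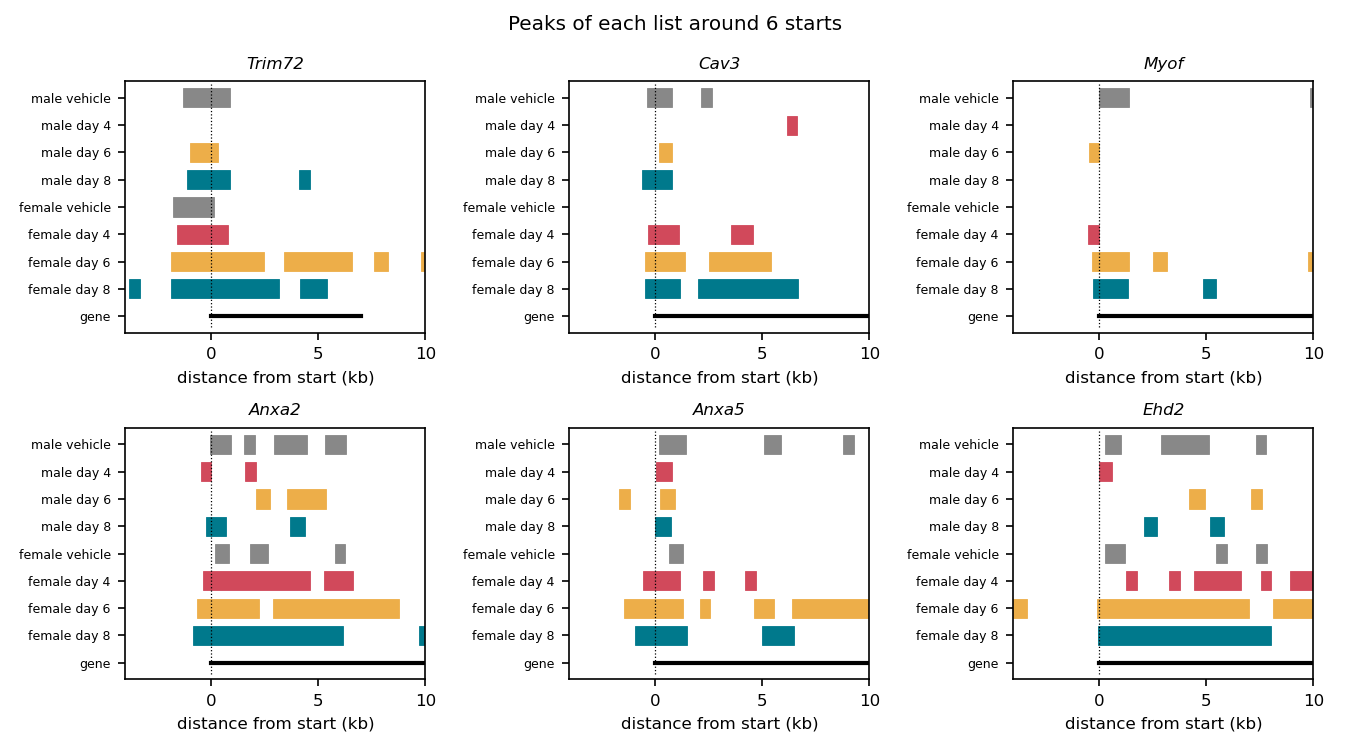
Peaks (bars) of each list (rows) by distance in kb from the RefSeq start (dotted line) of 6 genes, with the gene in black and colors for vehicle and for days 4, 6 and 8. Cav3 and Myof have no bar at the start in the female vehicle row, and Trim72, Cav3 and Myof have none there in the male day 4 row.

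Start peaks included, the 10 genes had 95, 20, 32 and 23 peaks in males and 40, 76, 125 and 97 in females, in order of vehicle and days 4, 6 and 8. They covered 92.1, 17.8, 37.4 and 22.6 kb in males and 36.6, 110, 273 and 195 kb in females. In the full lists these numbers followed the length of the lists, since the genes took between 0.0994% and 0.119% of the peaks of each. With 17482 peaks from each list by findPeaks score the numbers were 22, 20, 27 and 21 in males and 22, 29, 24 and 25 in females, and by normalized tags 26, 20, 24 and 22 and then 26, 25, 31 and 26. The female step from vehicle to day 4 was upward by the first ranking and downward by the second. At 4-fold over input or more the male numbers were 55, 20, 14 and 13, so that the step from day 4 to day 6 turned downward. The male lists then held 53724, 17408, 26581 and 15470 peaks. From day 4 to day 6 the number at the repair genes thus fell while the list grew, and the reason was not tested. Dysf had the most peaks in 7 of the 8 lists, with 34, 9, 8 and 6 in males and 6, 23, 48 and 35 in females, and Ahnak had the most, 10, in vehicle-treated females. Trim72 had at most 4 and Anxa1 none.

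**Figure D3:**
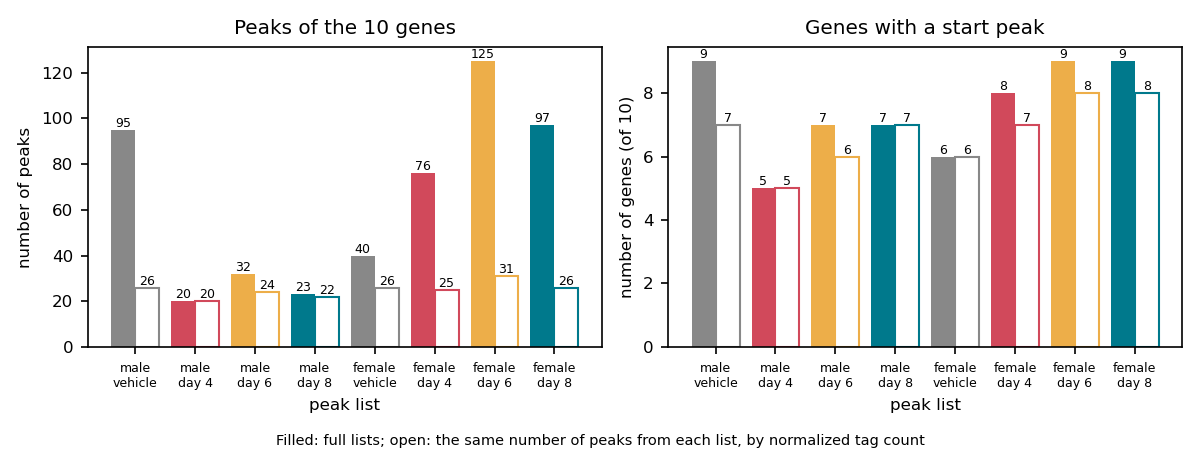
Number of peaks assigned to the 10 genes (left) and number of the 10 genes with a start peak (right) in each list. Filled bars are full lists and open bars are the 17482 peaks of highest normalized tag count of each list, where the peak numbers lie between 20 and 31.

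Merging the peaks of all lists gave 171 regions at these genes, of 250070 in all. The center of 135 was in an intron, of 18 in an exon, of 13 upstream and of 4 downstream of the gene, and of 1 in a promoter. Peaks of both sexes were in 53 regions (31.0%, against 18.9% of all regions), of female lists only in 97 (56.7%, against 57.1%) and of male lists only in 21 (12.3%, against 24.0%). There were 66 regions at Dysf, 27 at Myof, 20 at Ahnak, 19 at Anxa6, 13 at Anxa2, 11 at Anxa5, 6 at Trim72, 5 at Ehd2 and 4 at Cav3. A peak of all 8 lists was found in 8 regions (4.68%, against 1.7% of all regions): the starts of Anxa2, Anxa5, Anxa6, Dysf, Ahnak and Ehd2, an intronic region 44.4 to 53.7 kb from the first Dysf start, and a region 8.11 to 30.0 kb from the Ehd2 start that also holds the start of Nop53. In this last region the peaks of males at days 4, 6 and 8 and of vehicle-treated females were not among those assigned to Ehd2. The region counts for all 8 lists only through such peaks beyond the limits set for the gene. There were 0 such regions with lists of equal length by findPeaks score (0.996% of all regions), 1 at 4-fold over input (0.8%) and 8 with equal length by normalized tags (7.06%).

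A merged region can join peaks that do not touch each other, so the bases under a peak of every list were counted too. There were 4 such stretches. At the first Dysf start 501 bp (chr6:84008491-84008991) were under a peak in every list, from -0.107 to 0.393 kb of the start. In Anxa6 501 bp (chr11:55017527-55018027), all in introns and 15.4 to 15.9 kb from the start, were shared by every list, including the male day 4 and female vehicle lists that had no start peak of this gene. Anxa5 had 91 bp after its start and Ahnak 23 bp before its start. No base of Anxa2, Cav3, Trim72, Myof or Ehd2 was under a peak in all 8 lists, and the most lists over any base were 6, 6, 7, 5 and 5. Without the shallow male day 4 list, Trim72 had 1102 bp across its start under a peak in each of the other 7 lists.

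The longest peak was also compared between lists in Dysf, Anxa6, Ahnak and Ehd2. In Dysf it was 4.61, 0.952, 1.73 and 1.62 kb in males and 1.43, 3.85, 8.84 and 6.15 kb in females. In males the longest Anxa6 peak was 6.96 kb for vehicle, then 0.682, 3.67 and 2.15 kb. In Anxa6 the longest peak of the female vehicle list was 1.71 kb, and it was 13.9, 22.8 and 16.6 kb on days 4, 6 and 8. In females the longest Ahnak peaks were 3.20 kb with vehicle and 11.5, 15.6 and 15.0 kb at days 4, 6 and 8. In males the longest Ahnak peak was 4.44 kb for both vehicle and day 4, then 2.73 and 3.06 kb. The longest Ehd2 peak was 2.21, 0.632, 0.752 and 0.657 kb in males and 0.952, 2.17, 21.7 and 8.04 kb in females. The median peak of a whole list was 500 bp in the 4 male lists and in vehicle-treated females, and 625, 649 and 681 bp in females at days 4, 6 and 8. For the peaks of the 10 genes the median was 627, 500, 781 and 677 bp in males and 650, 648, 946 and 955 bp in females. The part of depth and of the share of tags in peaks in these lengths was not tested.

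**Figure D4:**
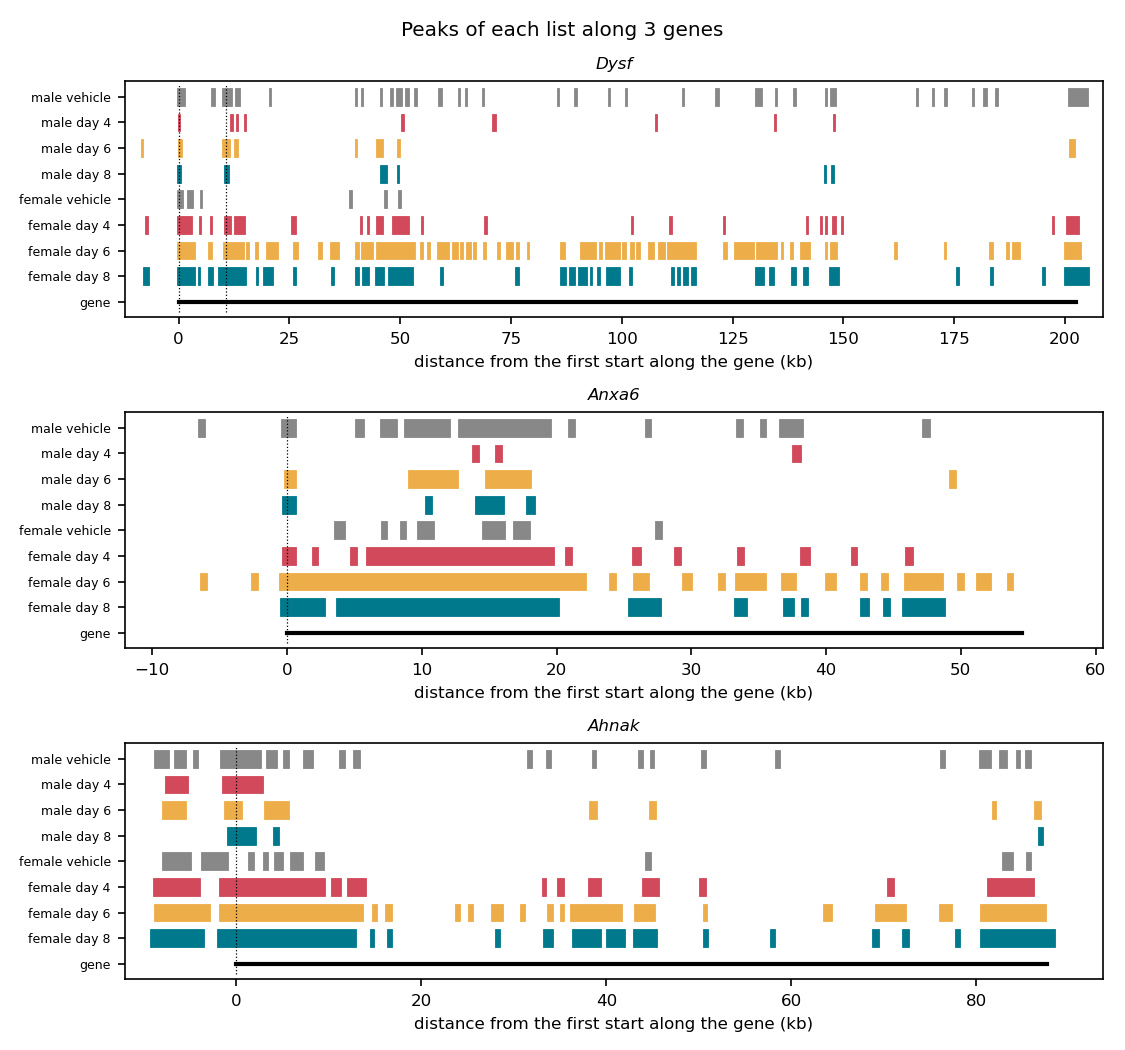
Peaks (bars) of each list (rows) along Dysf, Anxa6 and Ahnak by distance in kb from the first start (dotted lines mark the starts), with the gene in black and colors for vehicle and for days 4, 6 and 8. In Anxa6 and Ahnak the female rows at days 4, 6 and 8 have the longest bars, in Dysf those of days 6 and 8 do, and the intronic part of Anxa6 15.4 to 15.9 kb from the start has a bar in every row.

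Day 4 peaks that shared no base (less than 1 bp) with the vehicle peaks of their sex are called prednisone-responsive enhancers (PREs), after the definition used for these data. In males 5 of the 20 day 4 peaks of the repair genes were PREs (25.0%, Wilson 95% interval 11.2 to 46.9), against 45.4% of all male day 4 peaks. In females 59 of 76 were PREs (77.6%, interval 67.1 to 85.5), against 81.9% of all. The male PREs were 3 at Dysf, 1 at Anxa2 and 1 at Cav3. The female PREs were 20 at Dysf, 10 at Anxa6, 7 each at Ahnak and Myof, 5 at Ehd2, 4 at Anxa5, 3 at Anxa2, 2 at Cav3 and 1 at Trim72. With lists of equal length by normalized tags these were 8 of 20 in males (58.2% of all day 4 peaks of the shortened list) and 13 of 25 in females (56.4%). With equal length by findPeaks score they were 18 of 20 (69.4%) and 21 of 29 (71.3%).

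Of the 5 male PREs of these genes, 0 overlapped a peak at day 6 (5.84% of all male PREs did) and 0 overlapped one at day 8 (5.01% of all). With 5 PREs the interval for 0 reaches 43.4%, and with lists of equal length by findPeaks score 6 of 18 overlapped a peak at day 8 (20.1% of all such PREs). At 4-fold over input or more 1 of 9 did, and the share of all male PREs was not counted at this setting. With equal length by normalized tags 0 of 8 did (1021 of all 10180 did). The 3 with the highest fold were intronic peaks of Dysf 107 kb (10.8-fold) and 14.8 kb (10.4-fold) from the first start, and a peak of Cav3 6.14 kb from the start (10.02-fold). They held between 7 and 13 H3K27ac tags each.

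Of the 59 female PREs, 47 overlapped a peak at day 6 (79.7%, interval 67.7 to 88.0) and 38 at day 8 (64.4%, interval 51.7 to 75.4). For all female PREs the shares were 50.3% and 43.6%. The intervals take the 59 peaks as independent, although all are from 1 list and many are neighbors in the same gene. A difference from the share of all PREs was not tested. With lists of equal length, 6 of 21 were present at day 8 by findPeaks score (37.3% of all such PREs) and 12 of 13 by normalized tags (77.1%). At 4-fold over input or more 23 of 41 were, and the share of all female PREs was not counted at this setting. Both later lists had a peak at 35 of the 59 (37.7% of all female PREs) and neither did at 9 (43.8% of all). Of the 20 at Dysf 12 were present at both later days, of the 10 at Anxa6 6, and both PREs of Cav3. The PREs with the highest folds were a peak 10.2 kb before Trim72 (14.9-fold), in a region that also holds the start of Pycard and overlapped by no peak at either later day, and 3 peaks tied at 13.9-fold, namely 1 in Anxa6 present at day 6 only, 1 in Myof 71.0 kb from the start present at neither, and the Myof start peak. Each of these 4 rests on 1 input tag and at most 29 H3K27ac tags. The largest by tags were other peaks, 12.5 kb from the first Dysf start (225 tags, 4.13-fold) and 200 kb from it at the end of the gene (219 tags, 3.88-fold), both present at days 6 and 8.

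The female PREs at a start were 4, namely those of Cav3 (6.64-fold), Anxa6 (4.39-fold), Myof (13.9-fold) and the second start of Dysf (5.36-fold). All 4 were overlapped by a peak at both later days, as were 87.2% of all 5692 female PREs within 1 kb of a protein-coding start. All 4 starts had a peak in vehicle-treated males, against 73.5% of those 5692. The female vehicle list, in which they are absent, had 27.5 M H3K27ac tags against 49.0 M at day 4, so a lower level there and a peak missed for depth cannot be told apart.

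**Figure D5:**
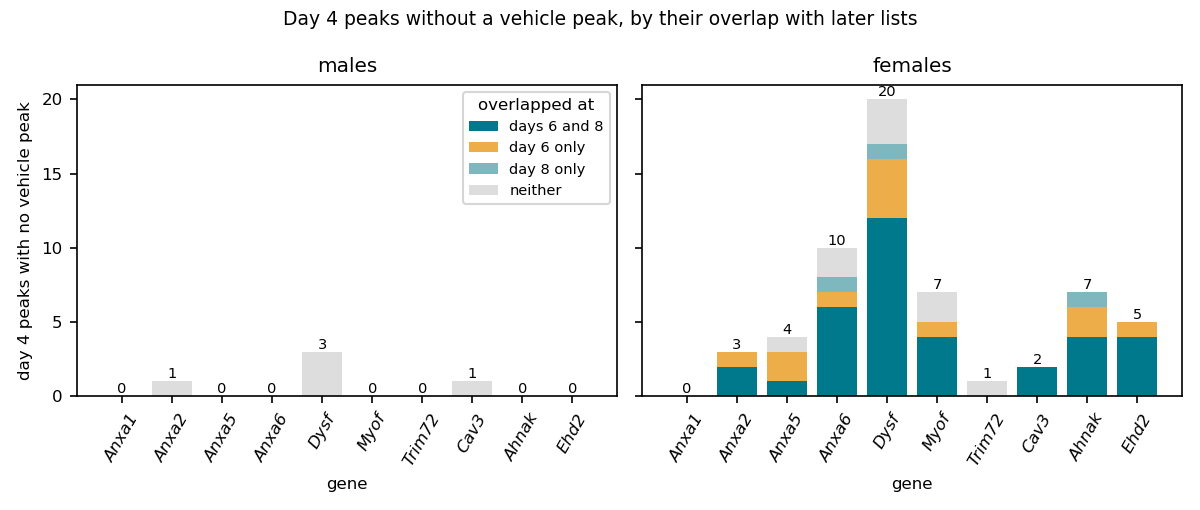
Number of day 4 peaks with no vehicle peak at each gene in males (left) and females (right), colored by whether a peak of day 6, of day 8, of both or of neither overlaps them. All 5 male peaks are overlapped by neither, and 35 of the 59 female peaks by both.

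The reverse comparison asked which vehicle peaks had no overlapping peak at day 4. In males these were 80 of 95 at the repair genes (84.2%, interval 75.6 to 90.2), against 89.7% of all male vehicle peaks, and 20 of the 80 were overlapped again at day 6 or 8 (10.4% of all such male peaks). In females they were 11 of 40 (27.5%, interval 16.1 to 42.8), against 63.4% of all female vehicle peaks, and 6 of the 11 were overlapped again (15.0% of all). The Trim72, Cav3, Anxa6 and Myof start peaks of males were among those with no start peak at day 4, and the first 3 of these genes had start peaks at days 6 and 8 again.

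A wider list of 34 genes for annexins, caveolae, calpains and resealing was counted in the same way. Start peaks were found for 27, 24, 25 and 22 of them in males and 18, 28, 32 and 31 in females. The shares of all protein-coding genes were 54.9%, 31.8%, 32.0% and 35.5% in males and 29.5%, 54.3%, 69.9% and 62.5% in females, and between vehicle and day 4 they moved in the same direction as the list. In all 8 lists 13 of these genes had one (16.7% of protein-coding genes did), namely Anxa7, Anxa11, S100a10, Cav1, Cavin1, Ehd1, Capn1, Capn3, Capns1, Stx4a, Snap23, Bin1 and Pacsin3, the same pattern as Anxa5, Dysf and Ahnak. The ferlin genes Fer1l5 and Fer1l6 had none in any list, as did Anxa1 and 24.5% of protein-coding genes. Cavin4, which encodes the muscle cavin, and Mcoln1, a lysosomal calcium channel gene, were alike in all 8 lists to Anxa6 and Cav3. Pdcd6ip, an ESCRT adaptor gene, matched Anxa2, and Cav2 matched Myof. Such matches were found for many genes, since 378 other protein-coding genes had the pattern of Anxa6, 460 that of Anxa2 and 320 that of Myof. No gene of this list matched Trim72 or Ehd2 in more than 7 lists. Where S100a10 had a peak in every list its partner Anxa2 had one in 7, and where Cavin4 had one Cav3 had one too.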

How the data were processed

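Per the paper's methods, the authors isolated myofibers with collagenase II, precipitated chromatin with an anti-H3K27ac antibody, aligned trimmed reads to mm10 (Bowtie2) and ran HOMER findPeaks in histone style against input, keeping peaks of 2-fold or more. The deposited tables hold 1 list per group, and the way its 2 libraries were joined is not given in the sources used here. The signal the authors deposited is the normalized tag count (per 10 M tags), and the score is that of findPeaks. The deposited H3K27ac and input tag counts and the deposited ratio (fold over input) were used, with tags scaled to the other library's depth returned to tags as counted. The authors' p-values and clonal fold changes were not used.

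The members and gene lists were chosen with earlier results of these data known. Overlaps of at least 1 bp were taken with Python 3.11.15 and pandas 2.3.3 from 45756 curated RefSeq transcripts of GRCm38.p6, in which 0 peaks reached beyond a chromosome's end. In a list the start peak of highest fold stands for a gene. All 10 genes are named; of PREs, the 3 of highest fold per sex with ties, and others chosen after their values were seen. Wilson intervals of shares and exact binomial intervals of folds cover counting error only. The Wilson intervals take peaks as independent, which neighboring peaks of 1 gene in 1 list need not be. H3K27ac depth was recovered from the smallest unit of the normalized tags, except in males at day 4 and females at day 6. There it came from the ratio of H3K27ac tags to normalized tags in large peaks. In every list 100% of values below 10 were whole multiples of the unit, within 0.0051 normalized tags. Where the unit was searched for, it was chosen to meet this. For input depth the ways were exchanged, with the unit taken from H3K27ac tags divided by fold. Overlap steps were tested on 2000 simulated peaks, and 7 of 7 checks were recovered. Alternatives were equal list length, 4-fold over input, the start base itself, predicted transcripts, gene bodies only and overlap of at least 50% of a peak.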

Additional observations from a re-analysis of the deposited data

Results flagged for a closer look

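In the full lists the change from vehicle to day 4 went in opposite directions in the 2 sexes. The number of repair genes with a start peak changed by -4 in males and by 2 in females. Over the same step the share of all protein-coding genes with a start peak went from 54.9% to 31.8% in males and from 29.5% to 54.3% in females. The number of peaks of the repair genes changed by -75 in males and by 36 in females. Each group has 1 list, so the difference between the sexes was not tested. List length went from 87600 to 17482 peaks in males and from 38861 to 67503 in females. H3K27ac depth went from 31.6 to 7.52 M tags in males and from 27.5 to 49.0 M tags in females, and depth, list length and treatment cannot be told apart here. With lists of equal length by findPeaks score, the genes with a start peak went from 2 to 5 in males and from 3 to 6 in females, and their peaks from 22 to 20 and from 22 to 29, so the male direction of the former turned. With equal length by normalized tags, the number of peaks was 26 and 20 in males and 26 and 25 in females, lower at day 4 in both sexes, and the number of genes with a start peak 7 and 5 in males and 6 and 7 in females.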

How the results depend on the processing

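Of 110 counts under alternative settings, 77 were within 1.5 times the reported count. With predicted transcripts added, gene bodies only, or overlap of at least 50% of the day 4 peak, all 20, 13 and 4 were. With lists of equal length by findPeaks score, 7 of 21 were. Genes with a start peak were then 2, 5, 6 and 7 in males and 3, 6, 4 and 5 in females, which turned the male change from vehicle to day 4 upward. Their peaks were 22, 20, 27 and 21 in males and 22, 29, 24 and 25 in females, PREs 18 in males and 21 in females with 6 and 6 present at day 8, and regions in every list 0. This score has many ties, with a median of 10 and a lowest value of 9 in vehicle-treated males, so ranking by normalized tags was added after seeing the data. The peaks were then 26 in vehicle-treated males and 26, 25, 31 and 26 in females, PREs 8 in males and 13 in females, of which 12 were present at day 8, and regions in every list 8.

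With at least 4-fold over input, peaks were 55, 14 and 13 in males with vehicle and at days 6 and 8, genes with a start peak 1 and 4 in males at days 6 and 8, male PREs 9 with 1 present at day 8, female PREs present at day 8 23, and regions in every list 1. With the start base itself covered, vehicle-treated females had 2 genes. Counting only regions with at least 1 base under a peak of every list left 4, and leaving out the male day 4 list gave 10; both were added after seeing the data. Why these counts differ was not tested, apart from the shorter lists themselves. No paired analysis was possible because each group has 1 list, and for the same reason no library could be left out. The male day 4 list had the lowest depth, and the part of depth in its 17482 peaks was not tested.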

Other observations

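Ehd2 had an arrangement of start peaks, in both vehicle lists, male day 4 and female days 6 and 8, that 3 other protein-coding genes had. In the 3 lists without a start peak the nearest peak was 1.26 to 4.18 kb away, and the merged region over its start had a peak in all 8 lists, although at most 5 lists had a peak over any single base of Ehd2.

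Within Anxa6, 501 bp in an intron were under a peak in every list while its start was not, and without the male day 4 list 3 stretches of 298, 1405 and 501 bp, 10.2 to 18.0 kb from the start, were under a peak in each of the other 7 lists. Of the 4250 regions of the genome with a peak in all 8 lists, 2973 had at least 1 base under a peak of every list.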
